A study of Mus musculus with 4 samples.

Results

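The transporters described here are solute carriers that move amino acids, sugars, monocarboxylates and related small molecules across membranes, measured in cumulus cells (CCs), the somatic cells that enclose the oocyte in the antral follicle. Members were the probes whose name in the deposited signals, with spaces trimmed and case ignored, was that of an Slc1, Slc2, Slc3, Slc5, Slc6, Slc7, Slc16, Slc36, Slc38 or Slc43 gene. The rule took 111 of the 25697 probes on the array, for 81 of 18118 gene names, and 19 of these symbols had more than 1 probe. The rule itself reads gene names and no measured values, but it was chosen with earlier results of these data known. The platform annotation gave a gene symbol to 107 of the member probes and none to 4.

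The CCs came from B6C3F1 females labelled as 6 weeks old and primed with folligon, a gonadotropin, and were sorted by the chromatin of the oocyte that they had enclosed. SN-CCs surrounded oocytes with a ring of chromatin around the nucleolus (SN, competent for development), and NSN-CCs surrounded oocytes without it (NSN, not competent). The sources name no genetic change in either group, and both had received the same priming. Each type of CCs was represented by 2 pools of cells from many complexes, and each pool was hybridised to its own Illumina mouse BeadChip, giving 4 arrays. The tissue label reads oocytes, whereas the titles and source names say cumulus cells.

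Solute carriers supply cells with nutrients that do not cross the lipid bilayer by themselves. The oocyte takes up some amino acids poorly and uses glucose poorly. Cumulus cells import these amino acids and turn glucose into pyruvate, and pass both to the oocyte, in part through gap junctions. In the mouse, the oocyte promotes expression of the amino acid carrier Slc38a3 in the cumulus cells around it.

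A signal is a probe's brightness on a linear scale as deposited, with the background still included. The background limit of an array was set at the 95th percentile of its 1371 probes for odorant, vomeronasal and taste receptors, and was 116 and 119 on the SN-CCs arrays and 120 and 116 on the NSN-CCs arrays. A probe below this limit had no signal distinguishable from that of the receptor probes, which says nothing firm about absence of the transcript. The fold changes below are log2 differences, NSN-CCs minus SN-CCs, from limma fitted over all probes after background correction and quantile normalization. They are therefore positive when NSN-CCs were higher. With 2 pools against 2, the smallest two-sided p of an exact permutation test is 0.333, so limma, which shares the spread over all probes, was used for testing.

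One of the 4 arrays, that of SN-CCs replicate 2, differed from the rest. Its median signal was 113, against 122 to 125 on the others, and 11729 of its probes were above the background limit, against 13536 to 13712. Among the 34 transporter probes above the limit on all 4 arrays, the deposited signals of the 2 SN-CCs arrays differed by more than 1.5 times for 10, and those of the 2 NSN-CCs arrays for 0. Where leaving this array out moved the fold change of a transporter described below by much, both values are given. Of 8 granulosa and cumulus markers, 7 were above the limit on all arrays, and their summed signals were 112936 and 72629 for SN-CCs and 115265 and 113765 for NSN-CCs. The low sum of SN-CCs replicate 2 lay in Inha, the inhibin alpha subunit, which had 46056 and 3760 for SN-CCs against 45170 and 43879 for NSN-CCs. Of the other markers, Inhba (32983 and 36026), Cyp19a1 (10576 and 13592) and Amhr2 (7802 and 10088) were higher in SN-CCs replicate 2 than in replicate 1. Fshr, Nr5a2, Amh and Foxl2 were lower. Oocyte markers summed to 3370 and 3762 for SN-CCs and 2603 and 2690 for NSN-CCs, and all 8 had negative fold changes (Zp2 was above the limit on no array). Erythroid markers summed to 9059 to 15938 on the 4 arrays, most of it from Hba-a1 (7965 to 15008), and leukocyte markers to 540 to 723 (Ptprc on none). Theca and stroma markers summed to 2956 and 4385 for SN-CCs and 3134 and 3243 for NSN-CCs (Col1a2 on no array), and endothelial markers to 458 to 511 (Cdh5 and Kdr on none). The part of these other cells in the transporter values was not tested. In pools of cells, fewer cells of a type and less RNA per cell cannot be told apart.

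Cumulus cells gave a signal for a minority of the transporter probes. On all 4 arrays 34 probes for 29 symbols were above the background limit, 27 were above it on some arrays, and 50 were above it on none. That share of 30.6% compares with 41.2% among all probes. Signals of at least 5 times the limit on every array were seen for 10 probes, which belonged to Slc38a5, Slc38a2 (2 probes), Slc7a5, Slc7a8, Slc7a4, Slc6a6, Slc6a8, Slc6a9 and Slc2a1. Over all probes, 4011 of 25697 were as bright. By class, they were 3 of 7 probes for Slc38, and 3 of 23 for Slc3, Slc7 and Slc43. For Slc6 and Slc36 with Slc16a10 they were 3 of 24, for Slc1 0 of 12, and for sugar and polyol carriers 1 of 24.

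**Figure D1:**
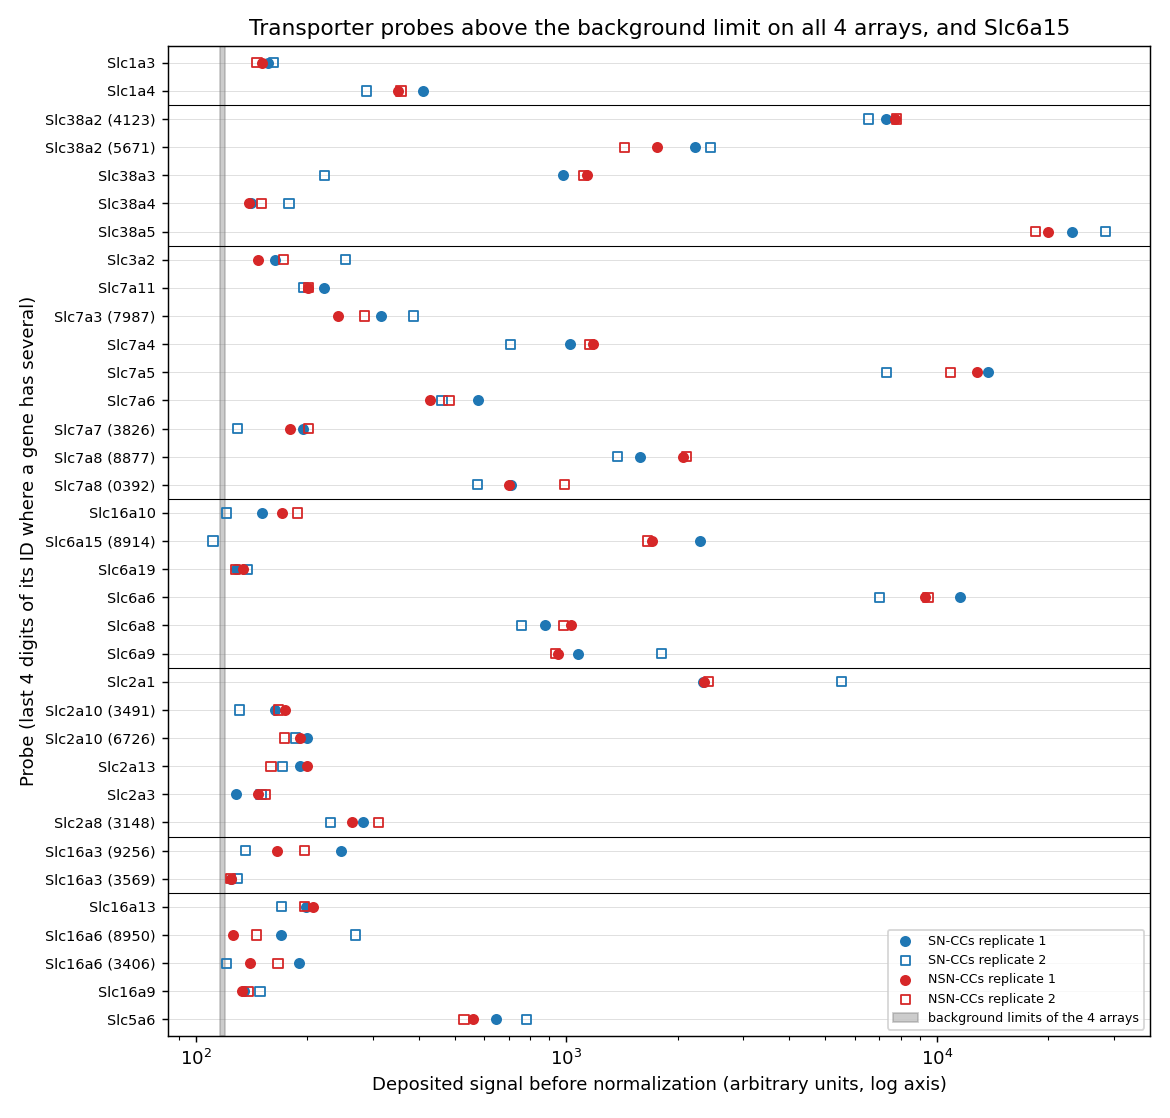
Deposited signal (log scale) of the transporter probes that passed the background limit on every array, with Slc6a15 added, one row per probe and one symbol per array of SN-CCs and NSN-CCs; the grey band is the background limit. The arrays of NSN-CCs nearly coincide for most probes, whereas SN-CCs replicate 2 lies apart for probes such as Slc38a3 (222 against 979 in SN-CCs replicate 1) and Slc2a1 (5519 against 2344).

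For no transporter probe did the difference between NSN-CCs and SN-CCs pass the test against the spread between pools. At an adjusted p under 0.05 limma called 0 of the 111 members, as it called 0 of all probes (0.00%), and the members' adjusted p ranged from 0.811 to 0.992. At an unadjusted p under 0.05, 2 members were higher in NSN-CCs (Slc7a8 and Slc7a4, against 1.09% of all probes) and 2 were lower (Slc36a1 and Slc6a5, against 2.02%). Fold changes were positive for 40 members and negative for 71, with a median of -0.06, and over all probes 11300 were positive and 14397 negative with a median of -0.03. In the table that the authors normalized, 102 of the 111 members had negative fold changes and their median was -0.37. The median over all probes of that table was itself -0.34. A constant was added to the values of that table before log2, which reduces the size of differences between arrays. The normalized values of the 2 types of CCs did not overlap for 48 members (38.2% of all probes), with NSN-CCs above in 15 and below in 33, and over all 25697 probes above in 4110 and below in 5702. In the deposited signals both NSN-CCs arrays were above both SN-CCs arrays for 24 members (19.4% of all probes) and below both for 19 (19.0%), so that the balance of directions differed before and after normalization.

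A fit without SN-CCs replicate 2 called 0 members. A fit without SN-CCs replicate 1, which leaves the array that stood apart as the sole SN-CCs array and assumes that it varies like the others, called 37 of the 111 members, beside 9547 of all probes (37.2%).

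**Figure D2:**
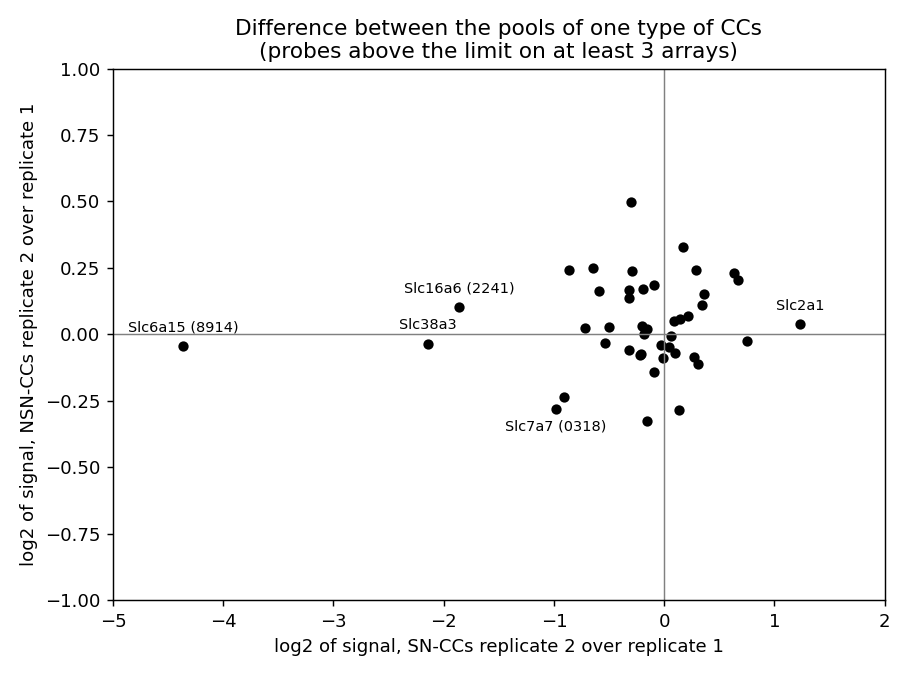
Difference between the 2 pools of each type of CCs (log2 of the deposited signal, replicate 2 over replicate 1), for the transporter probes above the limit on at least 3 arrays; SN-CCs on the horizontal axis and NSN-CCs on the vertical axis, which is drawn on a larger scale. The points spread far more along SN-CCs, with Slc6a15, Slc38a3 and a probe of Slc16a6 far to the left and Slc2a1 far to the right.

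The glutamine and alanine carriers of the Slc38 family (systems A and N) had 7 probes for 5 genes, of which 5 were above the limit on all arrays and 3 were bright. Slc38a5, a system N carrier of glutamine, histidine, serine and glycine, gave signals of 23107 and 28600 for SN-CCs and 19962 and 18469 for NSN-CCs. Its lowest signal was 159 times the background limit, and the groups did not overlap. The log2 fold change was -0.24 ± 0.18 (SE, n = 2 per group), and -0.07 without SN-CCs replicate 2. Slc38a3, the system N carrier induced by the oocyte, had 979 and 222 for SN-CCs and 1140 and 1112 for NSN-CCs. It was lower in SN-CCs replicate 2 than on every other array, at 1.86 times the limit, and so was not among the probes bright on all arrays. Its fold change of 1.18 ± 0.57 (limma, adjusted p = 0.811) moved to 0.35 without that array, and both SN-CCs values were below both NSN-CCs values.

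Slc38a2, a system A carrier that responds to amino acid supply, was read by 3 probes that disagreed. Probe ILMN_1244123 had 7277 and 6534 for SN-CCs and 7696 and 7798 for NSN-CCs, with a fold change of 0.40 ± 0.15. Probe ILMN_2955671 had 2231 and 2447 for SN-CCs and 1753 and 1439 for NSN-CCs, with a fold change of -0.46 ± 0.18. Under scaling to the median in place of quantile normalization, the fold changes of these probes were 0.11 and -0.62. Each probe separated the groups, but in opposite directions, and the adjusted p of both was 0.811. Which part of the transcript each probe reads was not analysed here. The third probe was below the limit on all arrays. Slc38a4, also of system A, had 141 and 179 for SN-CCs and 139 and 150 for NSN-CCs, close to the limit, with a fold change of -0.41 that became 0.04 without SN-CCs replicate 2. Slc38a1, a further system A carrier, was below the limit on every array.

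Large neutral, cationic and heteromeric carriers (Slc3, Slc7 and Slc43) had 23 probes for 15 genes, with 9 probes above the limit on all arrays and 12 on none. Their median fold change was -0.07, with 10 positive and 13 negative. Slc7a8, the exchanger LAT2 of small and large neutral amino acids, gave signals of 1577 and 1374 for SN-CCs and 2063 and 2108 for NSN-CCs at probe ILMN_2598877. The 2 types of CCs did not overlap. The fold change was 0.58 ± 0.13 with an unadjusted p of 0.010 in limma, the lowest of all members, and an adjusted p of 0.811. It was 0.55 without SN-CCs replicate 2 and 0.58 without SN-CCs replicate 1. The second probe, ILMN_2780392, had 711 and 577 for SN-CCs and 701 and 990 for NSN-CCs, with overlapping groups and a fold change of 0.29 ± 0.23. It was 0.57 without NSN-CCs replicate 1 and 0.03 without NSN-CCs replicate 2.

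Slc7a4, a relative of the cationic amino acid carriers, had 1025 and 708 for SN-CCs and 1184 and 1157 for NSN-CCs. Both NSN-CCs arrays were above both SN-CCs arrays, and the fold change was 0.43 ± 0.14 (limma, unadjusted p = 0.033), or 0.34 without SN-CCs replicate 2. Slc7a5, the large neutral amino acid exchanger LAT1, had 13754 and 7328 for SN-CCs and 12845 and 10913 for NSN-CCs. Its groups overlapped, and its fold change of 0.46 ± 0.37 was -0.04 without SN-CCs replicate 2. Slc3a2, the heavy chain that brings Slc7a5, Slc7a6, Slc7a8 and Slc7a11 to the cell surface, had 163 and 253 for SN-CCs and 147 and 173 for NSN-CCs. Those signals were only 1.23 times the limit at their lowest, and the fold change of -0.63 ± 0.45 was -0.03 without the same array.

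The remaining members of this class with signals on all arrays were dimmer. Slc7a6, which exchanges cationic for neutral amino acids, had 577 and 462 for SN-CCs and 430 and 483 for NSN-CCs. Its deposited signals overlapped, and after normalization both NSN-CCs arrays lay lower, with a fold change of -0.34 ± 0.15. Slc7a3, a carrier of arginine and lysine, had 316 and 387 for SN-CCs and 242 and 285 for NSN-CCs, without overlap. Its fold change was -0.63 ± 0.33, and -0.21 without SN-CCs replicate 2. Slc7a11, the cystine and glutamate exchanger, had 222 and 195 for SN-CCs and 201 and 202 for NSN-CCs, overlapping as deposited, with a fold change of -0.29 ± 0.19, or -0.09 without SN-CCs replicate 2. Slc7a7, a partner of Slc3a2 that carries cationic amino acids, was read by 2 probes. Probe ILMN_2723826 had 195 and 130 for SN-CCs and 180 and 201 for NSN-CCs. Its fold change of 0.13 was 0.01 without that array. Probe ILMN_1240318 had 198 and 100 for SN-CCs, the second below the limit, and 222 and 182 for NSN-CCs. Its fold change of 0.54 ± 0.36 was 0.07 without SN-CCs replicate 2.

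The Slc6 and Slc36 carriers, coupled to sodium and chloride or to protons, together with Slc16a10, had 24 probes for 21 genes. Above the limit on all arrays were 5 probes, and 10 were above it on none. The median fold change was -0.01, with 11 positive and 13 negative. Slc6a6, the taurine carrier, had 11567 and 7018 for SN-CCs and 9319 and 9472 for NSN-CCs, at least 58.8 times the limit. The NSN-CCs values lay between those of SN-CCs, and the fold change of 0.29 ± 0.30 was -0.12 without SN-CCs replicate 2. Slc6a9, the glycine carrier GLYT1, had 1075 and 1809 for SN-CCs and 952 and 935 for NSN-CCs. Both NSN-CCs values were lower, and the fold change of -0.53 ± 0.35 was -0.06 without that array. Oocytes express this carrier too, and the summed oocyte markers were also lower on both NSN-CCs arrays, whose part in this value was not tested. Slc6a8, the creatine carrier, had 873 and 756 for SN-CCs and 1032 and 982 for NSN-CCs, without overlap. Its fold change was 0.26 ± 0.15, and 0.33 without SN-CCs replicate 2.

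Slc6a15, a carrier of branched-chain amino acids and proline, is named after its values were seen. Its brighter probe had 2294 and 111 for SN-CCs and 1707 and 1655 for NSN-CCs. Only SN-CCs replicate 2 was below the background limit, and the fold change of 1.87 ± 1.52 was -0.31 without it. The other probe of Slc6a15 had 119 and 121 for SN-CCs and 109 and 111 for NSN-CCs, all next to the background limit. Its fold change was -0.26 ± 0.15 (limma, adjusted p = 0.811), and -0.15 without SN-CCs replicate 2.

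The dim members of this class lay near the limit. Slc16a10, a carrier of aromatic amino acids, had 151 and 121 for SN-CCs and 171 and 188 for NSN-CCs, with a fold change of 0.33 ± 0.15 and no overlap. In the authors' normalized table its fold change was -0.05, against the median of -0.34 over all probes of that table. Slc36a1, the proton-coupled carrier of small amino acids known from lysosomes, had 143 and 134 for SN-CCs and 105 and 119 for NSN-CCs, and 1 NSN-CCs array was under the limit. Its fold change was -0.51 ± 0.18 (limma, unadjusted p = 0.043), and -0.42 without SN-CCs replicate 2. Slc6a5, the neuronal glycine carrier GLYT2, was below the limit on all 4 arrays (SN-CCs 94 and 99, NSN-CCs 81 and 77), so that its fold change of -0.42 was measured between background signals. Slc6a19, a neutral amino acid carrier of gut and kidney, had 128 and 138 for SN-CCs and 134 and 128 for NSN-CCs, with a fold change of -0.23 that was 0.02 without SN-CCs replicate 2.

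The glutamate and small neutral amino acid carriers of the Slc1 family had 12 probes for 7 genes, of which 2 were above the limit on all arrays, 6 on none, and 0 bright. The median fold change was -0.05. Slc1a4, the exchanger ASCT1 of alanine, serine and cysteine, had 410 and 289 for SN-CCs and 351 and 358 for NSN-CCs. The deposited signals overlapped, and the fold change was -0.17 ± 0.13. Slc1a3, a glutamate carrier, had 157 and 162 for SN-CCs and 151 and 146 for NSN-CCs, with a fold change of -0.36 ± 0.24 and -0.08 without SN-CCs replicate 2. Slc1a5, the glutamine exchanger ASCT2, was below the limit on every array at both of its probes.

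Sugar and polyol carriers (Slc2 and part of Slc5) had 24 probes for 17 genes, with 6 probes above the limit on all arrays, 13 on none and 1 bright. Slc2a1, the glucose carrier GLUT1, gave signals of 2344 and 5519 for SN-CCs and 2352 and 2417 for NSN-CCs. Of these 4 values 3 lay close together, and SN-CCs replicate 2 was the high one. The fold change of -0.41 ± 0.43 became 0.17 without that array. The median fold change of the class was -0.10, with 8 positive and 16 negative.

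The other sugar carriers were dim or below the limit. Slc2a8, the intracellular glucose carrier GLUT8, had 283 and 231 for SN-CCs and 264 and 311 for NSN-CCs, with a fold change of -0.06 that was 0.09 without SN-CCs replicate 2 and 0.11 under scaling to the median. Slc2a3, the glucose carrier GLUT3, had 129 and 150 for SN-CCs and 147 and 154 for NSN-CCs, with a fold change of -0.12 that was 0.25 without SN-CCs replicate 2. Slc2a13, a proton-coupled carrier of myo-inositol, had 191 and 172 for SN-CCs and 200 and 160 for NSN-CCs, overlapping. Its fold change of -0.26 ± 0.22 was -0.06 without SN-CCs replicate 2. The 2 probes of Slc2a10, a member of the GLUT family, gave fold changes of 0.07 and -0.33, or 0.09 and -0.10 without that array. Slc2a4, the insulin-responsive glucose carrier GLUT4, was below the limit on all 4 arrays (SN-CCs 114 and 104, NSN-CCs both 98.7).

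The monocarboxylate carriers had 8 probes for 5 genes, with 2 probes above the limit on all arrays and 0 bright. Both belong to Slc16a3, the lactate exporter MCT4. Probe ILMN_3149256 had 247 and 136 for SN-CCs and 166 and 197 for NSN-CCs, with overlapping groups and a fold change of -0.18 ± 0.22. Probe ILMN_3163569 had 125 and 130 for SN-CCs and 125 and 124 for NSN-CCs, next to the limit, with a fold change of -0.20 ± 0.18. Without SN-CCs replicate 2 these were -0.43 and -0.02. Slc16a1, which carries lactate and pyruvate as MCT1, had 100 and 114 for SN-CCs and 122 and 112 for NSN-CCs, and only NSN-CCs replicate 1 was above the limit. Its fold change of 0.05 ± 0.17 was 0.22 without SN-CCs replicate 2. Slc16a7, the pyruvate carrier MCT2, was below it on every array (94 to 106).

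Members of the same families with other or unassigned substrates had 13 probes for 11 genes, with 5 above the limit on all arrays. Slc5a6, the carrier of biotin and pantothenate, had 646 and 780 for SN-CCs and 561 and 529 for NSN-CCs, at least 4.56 times the limit. The groups did not overlap, and the fold change was -0.49 ± 0.27, or -0.14 without SN-CCs replicate 2. Slc16a6, known as MCT7, was read by 3 probes. Probe ILMN_1258950 had 170 and 270 for SN-CCs and 126 and 146 for NSN-CCs, with a fold change of -0.95 ± 0.46 that was -0.36 without SN-CCs replicate 2. Probe ILMN_3152241 had 385 and 106 for SN-CCs and 268 and 288 for NSN-CCs, and its fold change of 0.48 was -0.42 without that array. The probes of this gene therefore placed SN-CCs replicate 2 at opposite ends. The fold changes of probe ILMN_3073406, Slc16a13 and Slc16a9 were -0.08, -0.09 and -0.29, and -0.32, 0.09 and 0.02 without that array. Slc5a7, the choline carrier of cholinergic neurons, had 115 and 101 for SN-CCs and 134 and 143 for NSN-CCs, near the limit. Only the NSN-CCs values passed it, and the gene is named after these values were seen. Its fold change was 0.34 ± 0.15 (limma, adjusted p = 0.811). In the authors' normalized table it was -0.16, against the median of -0.34 over all probes of that table.

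**Figure D3:**
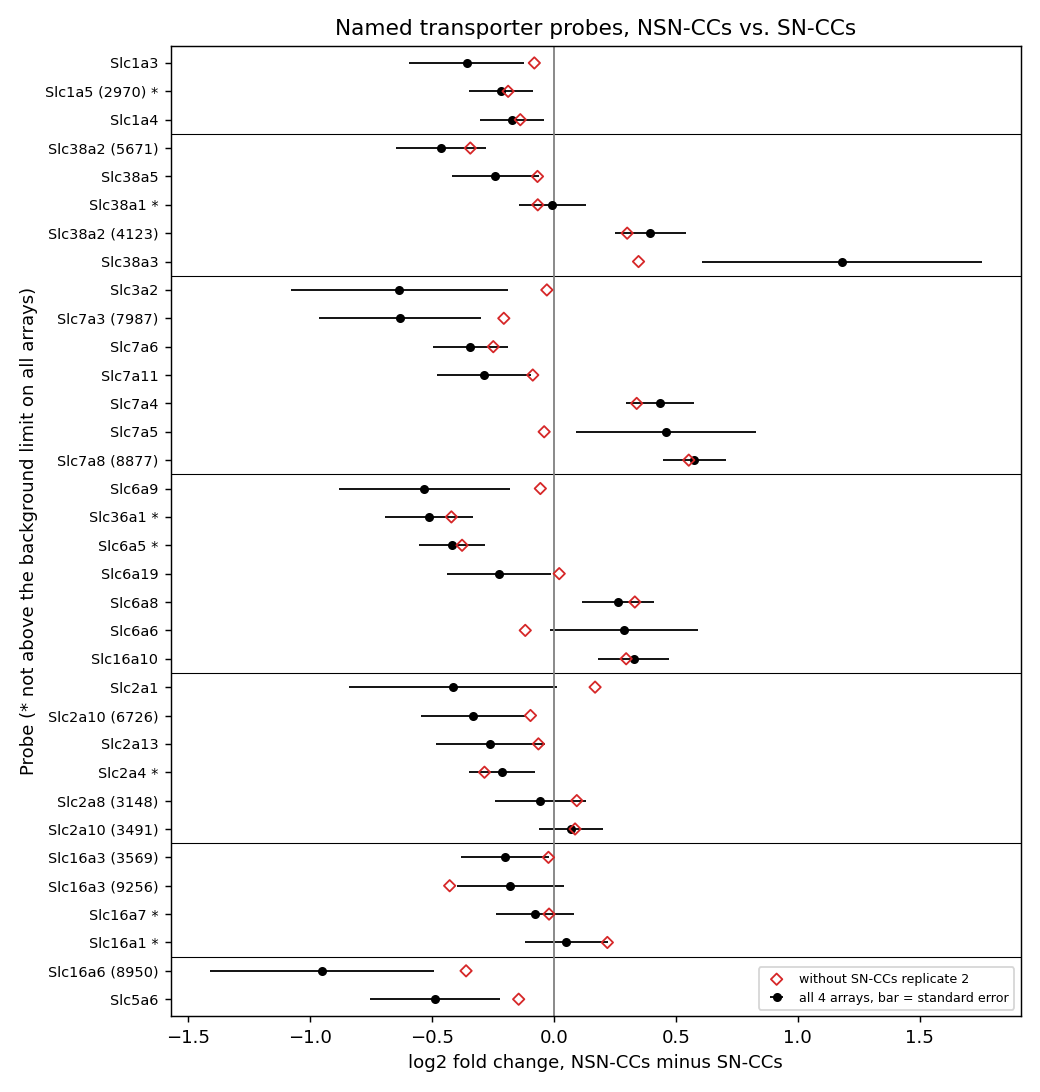
Log2 fold change (NSN-CCs minus SN-CCs) of the named transporter probes with limma's standard error, beside the value without SN-CCs replicate 2. Slc38a3 moves from 1.18 to 0.35 and Slc2a1 from -0.41 to 0.17, whereas Slc7a8 stays near 0.58.

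Promoter windows were read for the genes of the bright probes, Slc38a3 and Slc6a15, where RefSeq windows of GRCm38.p6 were given (250 bases before to 50 after the gene's start). Windows were found for 5 of these 11 genes, 7 windows in all. Those of Slc38a5, the gene with the signal highest above the limit, and of Slc7a8, the gene with the lowest p, are shown, at chrX:8271131-8271430 (plus strand) and chr14:54781837-54782136 (minus strand). Capitals mark matches, on either strand, to a GC box (GGGCGG) or an E-box (CACGTG).
Slc38a5: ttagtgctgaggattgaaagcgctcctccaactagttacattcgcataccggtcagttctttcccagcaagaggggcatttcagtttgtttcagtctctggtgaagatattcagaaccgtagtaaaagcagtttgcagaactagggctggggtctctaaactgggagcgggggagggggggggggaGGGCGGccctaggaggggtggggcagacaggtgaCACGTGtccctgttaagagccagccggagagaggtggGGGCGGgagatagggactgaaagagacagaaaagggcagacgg
Slc7a8: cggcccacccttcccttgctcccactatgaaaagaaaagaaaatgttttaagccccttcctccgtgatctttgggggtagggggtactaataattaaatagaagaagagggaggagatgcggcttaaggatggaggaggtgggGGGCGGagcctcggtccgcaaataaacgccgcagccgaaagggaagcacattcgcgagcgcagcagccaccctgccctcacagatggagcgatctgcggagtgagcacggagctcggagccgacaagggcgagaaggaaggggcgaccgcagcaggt
Both windows hold a GC box. Each of the 5 genes found had a window with one, but some windows of Slc6a9 had none. Among the 32851 mouse windows given, 35.7% hold one, a share counted by window and not by gene. The E-box of Slc38a5 is in 7.15% of all windows. A TATA box (TATAAA), found in 13.6%, was matched in the window of Slc2a1 alone among the 5 genes. The cyclic AMP response element (TGACGTCA, in 1.79%) and the NR5A element (AAGGTCA, in 4.72%) had no match in these windows. A match describes letters in a window and is not evidence of a bound site.

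The partners of these carriers and genes of amino acid and glucose sensing were read from the same fit. Of 14 listed genes 13 were measured, 8 were above the limit on all arrays, 4 had positive and 9 negative fold changes, and 0 passed an unadjusted p under 0.05 in limma. Over all probes, 56.0% had negative fold changes. The median of the partners was -0.06, and 0.08 without SN-CCs replicate 2, where 8 were positive. The transporters' median was -0.06, and -0.04 without that array, where 44 were positive and 67 negative. Gja1, the gap junction protein that couples granulosa and cumulus cells, had 52985 and 50658 for SN-CCs and 46604 and 49450 for NSN-CCs, with a fold change of -0.06, or -0.09 without SN-CCs replicate 2. Txnip, a glucose-responsive inhibitor of glucose uptake, had 8629 and 7195 for SN-CCs and 6573 and 6150 for NSN-CCs, lower in NSN-CCs as deposited and with a fold change of -0.07 after normalization, or -0.23 without SN-CCs replicate 2. Asns, the asparagine synthetase, had 2744 and 4552 for SN-CCs and 2222 and 2783 for NSN-CCs, with overlapping groups and a fold change of -0.35 that was 0.01 without that array. Emb, which brings monocarboxylate carriers to the membrane, had 476 and 643 for SN-CCs and 380 and 407 for NSN-CCs, with a fold change of -0.65 that was -0.19 without SN-CCs replicate 2. Bsg, the chaperone of Slc16a1 and Slc16a3, was at 102 and 81 for SN-CCs and 112 and 132 for NSN-CCs, near the background limit.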

How the data were processed

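The authors hybridised labelled cRNA of 4 pools of CCs to Illumina BeadChips and read them with BeadStudio (version 3 in the submitters' processing notes). The main deposited table holds intensity values, the signal of each probe on a linear scale with no background subtraction and no scaling between arrays. Intensities normalized by the authors, in a second deposited table, served as an alternative. The paper describes its data as background-subtracted and scaled by a rank invariant method. The lowest values of that table were 66.2 to 69.1, and 182 for SN-CCs replicate 2. A background subtraction was therefore not visible in its values. Neither table gives detection p-values, and 0 columns belonged to no sample.

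Background was corrected with normexp (offset of 50) over all probes, followed by quantile normalization and log2. To the values of the authors' table, 50 was added before log2, which reduces the size of differences between arrays. The contrast of NSN-CCs minus SN-CCs was tested per probe with lmFit and eBayes of limma 3.58.1 (R 4.3.3), without covariates or filter, with the Benjamini-Hochberg adjustment taken across all 25697 probes. The fit was tested on simulated data in which all arrays shared the spread of the NSN-CCs arrays. That simulation therefore does not cover the wider spread of SN-CCs (median SD over all probes 0.19, against 0.08 in NSN-CCs). Groups came from the titles, and replicates are pools described as biological replicates. Precision is limited by the 2 arrays per group. Alternatives were no background correction, an offset of 16, scaling to the median, the authors' table, a filter keeping probes above the limit on at least 2 arrays, array weights, a replicate block, the brightest probe per gene, other background limits and leaving out each array.

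Named genes are members bright on all arrays, up to 2 higher and 2 lower members per substrate class with the smallest p among those above the limit on all arrays, carriers with a known role in the follicle, and members with an unadjusted p under 0.05. Slc2a3, Slc5a7, Slc6a15, Slc7a7, Slc16a9, Slc16a13 and Slc38a4 are named outside this rule, after their values were seen. Members and gene lists were chosen with earlier results of these data known.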

Additional observations from a re-analysis of the deposited data

How the results depend on the processing

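The count of all probes called by limma at an adjusted p under 0.05 was 0, and 24 in the authors' normalized table, 0 of them transporters. Leaving out 1 array at a time gave 0 to 9547 calls, with 9547 without SN-CCs replicate 1 and 1 without SN-CCs replicate 2, and the medians of the 7 substrate classes then ranged from -0.42 to -0.0029. The median of the Slc38 class then ranged from -0.42 (without SN-CCs replicate 1) to -0.066 (without SN-CCs replicate 2). In the authors' table, where all probes had a median of -0.34, the median was -0.37 over all members, -0.37 for Slc1, -0.39 for Slc3, Slc7 and Slc43, -0.36 for Slc6 and Slc36, -0.39 for sugars, -0.38 for monocarboxylates and -0.34 for other substrates. Its lowest value was 182 for SN-CCs replicate 2 and 66.2 to 69.1 for the others. A filter on dim probes gave -0.17 for Slc1 and 0.21 for Slc3, Slc7 and Slc43. The brightest probe of each gene gave -0.17 for Slc1 and -0.0061 for Slc38. Probes above the limit on all arrays gave -0.27 for Slc1, 0.13 for Slc3, Slc7 and Slc43, 0.26 for Slc6 and Slc36 and -0.29 for other substrates. Of the 34 named probes, these changed direction: in the authors' table Slc16a1 (-0.29), Slc16a10 (-0.053) and Slc2a10 (-0.16), and under median scaling Slc2a8 (0.11). Median scaling also lowered the fold change of every bright probe, for example to 0.0064 for Slc6a6, 0.18 for Slc7a5, -0.48 for Slc38a5 and -0.65 for Slc2a1. The smallest move was that of Slc6a8, from 0.262 to 0.258. Leaving out 1 array at a time, the fold change turned at 1 or more arrays for Slc16a1 (range -0.10 to 0.22), Slc16a3 (-0.43 to 0.040), Slc16a7 (-0.20 to 0.047), Slc2a1 (-1.01 to 0.17), Slc2a8 (-0.20 to 0.094), Slc38a1 (-0.066 to 0.048), Slc6a19 (-0.45 to 0.022), Slc6a6 (-0.12 to 0.70) and Slc7a5 (-0.040 to 0.96). Those of Slc2a1, Slc6a19, Slc6a6 and Slc7a5 turned only without SN-CCs replicate 2. Over the members the median fold change was -0.082 without SN-CCs replicate 1 and -0.041 without SN-CCs replicate 2. The cause of the differences between these fits was not tested. The replicate block left 0 calls and turned 0 of the 34 directions. Same-numbered pools share only a number, with a correlation of 0.0414 between the differences of their replicates. Array weights were 0.392 for SN-CCs and 2.55 for NSN-CCs and changed no call. Members above the limit on all arrays numbered 25 at the 99th percentile of the receptor probes and 39 at the 90th, against 34. A slide block could not be fitted because the files name no slides. Dim signals limit many members, since 50 of the 111 were above the background limit on no array.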

Other observations

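Transporters of these families that the array lists under older names were not matched by name. The annotation gives 16 such probes for 11 genes, of which 4 were above the background limit on all arrays and 11 on none. Slc38a10 gave signals of 382 and 634 for SN-CCs and 368 and 395 for NSN-CCs, with a log2 fold change of -0.53 that was 0.08 without SN-CCs replicate 2. Slc38a7, a glutamine carrier, had 490 and 203 for SN-CCs and 390 and 411 for NSN-CCs, with a fold change of 0.14 that was -0.22 without the same array. Slc38a9, the arginine sensor of lysosomes, had 405 and 263 for SN-CCs and 422 and 385 for NSN-CCs at its brightest probe, with a fold change of 0.10. Another of its probes above the limit on all arrays had 129 and 185 for SN-CCs and 136 and 145 for NSN-CCs. The fold change there was -0.41, or 0.14 without SN-CCs replicate 2. In each case SN-CCs replicate 2 was the array farthest from the other 3.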
